A study of Mus musculus with 2 samples.

Results

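The small heat shock proteins examined here are the products of 7 mouse genes, Hspb1, Hspb2, Hspb3, Hspb6, Hspb7, Hspb8 and Cryab. They were chosen by name, as members of the family to which heat shock protein 27 (HSP27, encoded by Hspb1) belongs, and a probe was taken when its RefSeq accession mapped to one of these symbols. All 7 genes had a probe, 8 probes in all, among 20886 gene symbols and 39429 probes on the array. Gene expression was measured on 1-colour arrays in total RNA of whole lung, taken 14 days after treatment with bleomycin, which damages the lung epithelium and is followed by scarring. The C57BL6/N array was, by its label, of a male aged 6 weeks. The transgenic array was labelled as a male C57BL6/N of the same age that carried a transgene for HSP27 overexpression. Both samples had received bleomycin into the trachea at 1.25 mg/kg. The series title asks how HSP27 overexpression affects pulmonary fibrosis in this model. The labels name neither the species nor the promoter of the transgene, nor whether RNA of several animals was pooled, and there was no lung without bleomycin. Each group had 1 array, so the variation between animals is unknown and the groups were not tested against each other.

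Small heat shock proteins share an alpha-crystallin domain and assemble into oligomers that hold unfolding proteins in a soluble state without using ATP. HSP27 itself is made in most tissues, is induced by heat and other stress, binds actin filaments and is phosphorylated by the kinase MK2 downstream of p38. Several relatives, among them Hspb2, Hspb3 and Hspb7, are best known from heart and skeletal muscle, while Hspb6 and Cryab are abundant in muscle of several kinds. In lung, smooth muscle is found in airway and vessel walls and cardiac muscle around the large pulmonary veins.

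The C57BL6/N array went against its label in sex-linked transcripts. Xist, transcribed from the inactive X of female animals, read 521 and 330 at its probes there, against 2.83 and 3.36 in the transgenic sample, where it was not well above background. The Y-linked gene Ddx3y read 508 in C57BL6/N and 2437 in transgenic lung. On the C57BL6/N array, Xist and Ddx3y were thus both well above background. The samples therefore differed in sex-linked RNA as well as in the transgene, and these cannot be told apart in any difference below. Whether the C57BL6/N RNA came from animals of both sexes was not tested. The 75th percentile of signal over all probes, to which each array was scaled, was 1287 for C57BL6/N and 1426 for the transgenic sample, and 0 spots were saturated.

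Hspb1 was bright on both arrays and read slightly higher in the transgenic lung. Its only probe read 41040 in C57BL6/N and 53554 in transgenic lung, with software error estimates of 4104 and 5355. The transgenic value was thus the higher one before scaling as well as after it. After scaling, the difference of the transgenic minus the C57BL6/N array was 0.24 on the log2 scale, or 1.18-fold. The error estimates of the scanner software gave 0.20 for this difference, and the spread between repeated spots of probes as bright as this one had an SD of 0.05. Both are technical errors and hold nothing of the variation between animals. Of 15495 genes with a measured difference, 3867 had a greater positive one than Hspb1, and 54.7% had a greater difference in either direction. Whether the mouse probe reports transcripts of the transgene was not tested, so its reading checks only RNA that binds this probe.

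The bases before the start of Hspb1 are shown because heat shock factor binds repeats of GAA and its complement, and Hspb1 is a heat-inducible gene. The window is chr5:135887669-135887918 on the + strand of GRCm38.p6, from RefSeq, and capitals mark matches to GAANNTTC, which reads the same on both strands.
Hspb1: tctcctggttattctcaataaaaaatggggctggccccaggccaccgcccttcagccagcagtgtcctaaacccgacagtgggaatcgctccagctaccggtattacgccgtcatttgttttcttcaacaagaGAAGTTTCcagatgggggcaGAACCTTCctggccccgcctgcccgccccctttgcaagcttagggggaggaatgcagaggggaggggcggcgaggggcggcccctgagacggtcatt
Matches lay 117 to 110 and 97 to 90 bases before the start, as GAAGTTTC and GAACCTTC. Of 32851 such windows of 250 bases in the RefSeq table, 6.69% held GAANNTTC. A longer form, with NNGAA after that motif, was searched as well and lay in 0.466% of all windows. The reversed order, TTC before GAA with NN between, was also searched. The Hspb1 window held neither of these, nor did any other window matched for the small heat shock protein genes. A match is a stretch of letters and no measured binding site.

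Hspb7 had the greatest difference of the family. It encodes the cardiovascular small heat shock protein, which is abundant in striated muscle and binds the actin crosslinker filamin C. Its probe was printed in 10 spots on each array, which is the only repeated measurement among these genes. On the C57BL6/N array the spots ranged from 52.6 to 65.7 with a median of 62.3, and on the transgenic array from 271 to 289 with a median of 284. The signal was 60.8 ± 4.47 (SD, n = 10 spots) against 283 ± 5.60 (SD, n = 10 spots). These spots are technical copies of the same probe on 1 array per group. The gap between their ranges holds nothing of the variation between animals. The scaled log2 difference was 2.07 ± 0.10 (SD, n = 10 spots), or 4.21-fold, and ranged from 1.97 to 2.27 between spots at the same position. The probe was dim: its raw brightness on the C57BL6/N array was 2.92 times the local background, and on the transgenic array 9.99 times. Only 114 of the 15495 measured genes (0.736%) had a greater positive difference. With a normexp background correction, which here added an offset of 50 to each signal, the difference was 1.36.

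**Figure D1:**
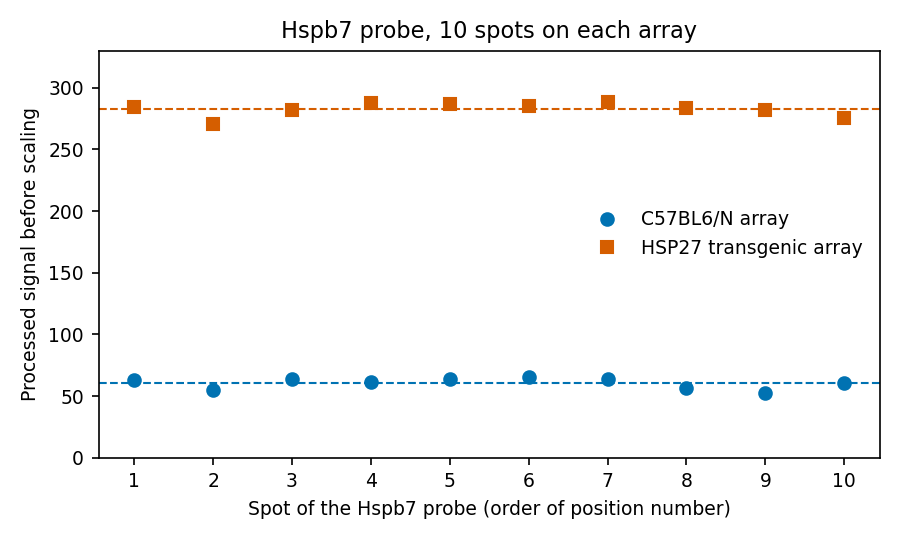
Processed signal of the Hspb7 probe before scaling (y axis) in each of its 10 spots (x axis) on the C57BL6/N array (circles) and the HSP27 transgenic array (squares), with dashed lines at the means of 60.8 and 283. All transgenic spots lie at or above 271 and all C57BL6/N spots at or below 65.7.

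Hspb6 was the other member past 1.5-fold. Its protein, HSP20, is a substrate of cyclic nucleotide-dependent kinases in smooth muscle, where its phosphorylation accompanies relaxation. The probe read 849 in C57BL6/N and 1461 in transgenic lung, with software errors of 85.0 and 146. The scaled difference was 0.63, or 1.55-fold, with a software error of 0.20 and a repeated-spot SD of 0.06. The software error of the difference therefore reached below the 1.5-fold line of 0.58 on the log2 scale. Hspb6 was at 0.51 with normexp and at 0.584 when the signal before the removal of array-wide trends was used, both just short of 1.5-fold. Of all measured genes, 9.05% had a greater positive difference.

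Windows before the starts of Hspb7 and Hspb6 are shown beside that of Hspb1 because these were the members past 1.5-fold. They are chr4:141420529-141420778 on the + strand for Hspb7 and chr7:30552290-30552539 on the + strand for Hspb6, at the first of 2 starts that RefSeq gives for this gene, both in GRCm38.p6.
Hspb7: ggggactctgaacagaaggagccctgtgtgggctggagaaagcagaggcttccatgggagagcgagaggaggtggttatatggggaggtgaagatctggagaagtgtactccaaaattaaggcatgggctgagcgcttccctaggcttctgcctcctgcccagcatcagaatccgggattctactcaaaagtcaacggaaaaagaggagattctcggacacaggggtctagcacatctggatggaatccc
Hspb6: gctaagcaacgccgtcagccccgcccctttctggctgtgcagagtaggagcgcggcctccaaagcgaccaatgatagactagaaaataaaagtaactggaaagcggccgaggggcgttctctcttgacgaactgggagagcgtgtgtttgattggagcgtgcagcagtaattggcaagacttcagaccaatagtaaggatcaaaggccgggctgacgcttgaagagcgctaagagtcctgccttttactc
Neither window held GAANNTTC, TTCNNGAA or a CArG box, the motif of serum response factor. Of all windows, 6.69% held GAANNTTC, 7.17% held TTCNNGAA and 1.47% held a CArG box. The window of the other Hspb6 start had GAAGTTTC 120 to 113 bases before it and no CArG box, and that of Hspb3 had GAATTTTC 224 to 217 bases before the start. TATAAA, searched as well, lay 29 to 24 bases before the other Hspb6 start and 11 to 6 before that of Hspb3. It was in no other window of these genes and in 12.4% of all windows. The Hspb8 window held none of these motifs. No letters found in a window say only that they are not in these 250 bases. RefSeq windows were matched for 5 of the 7 genes, and Hspb2 and Cryab were the others.

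Hspb8 and Hspb2 read higher in the transgenic lung by less than 1.5-fold. Hspb8, or HSP22, works with the co-chaperone Bag3 in the removal of damaged filament proteins by autophagy. Its probe read 2895 in C57BL6/N and 4178 in transgenic lung, a scaled difference of 0.38 or 1.30-fold. Hspb2, which binds the myotonic dystrophy kinase in muscle, read 2905 and 3846, a scaled difference of 0.26 or 1.19-fold. Each difference had a software error of 0.20 and a repeated-spot SD of 0.05. The differences of Hspb1, Hspb2 and Hspb8 lay closer to one another than this software error.

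The probes of Cryab did not go the same way. Cryab encodes alphaB-crystallin, a lens protein that is also abundant in heart and muscle, where it protects desmin filaments. One probe read 41246 in C57BL6/N and 34602 in transgenic lung, a scaled difference of -0.40 with a software error of 0.20. The other probe for the same accession read 3345 and 3863, a scaled difference of 0.06 with the same error. The probes were thus 0.46 apart on the log2 scale, and their mean was -0.17. The first probe stayed below 0 and the second above 0 under each alternative scaling and background correction. Cryab and Hspb2 are neighbours, and in the RefSeq gene table the span of Hspb2 lies inside that of Cryab. The exons that their probes cover were not analysed here, and the reading of Hspb2, at 0.26, lay above both Cryab probes.

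Hspb3, the partner of Hspb2 in oligomers of muscle cells, was not well above background on either array. Its probe read 2.41 in C57BL6/N and 9.18 in transgenic lung, with software errors of 2.40 and 2.69, where the lowest signals well above background were 11.9 and 12.5. No fold is given for it. It was thus the only one of the 7 genes without a measured difference.

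**Figure D2:**
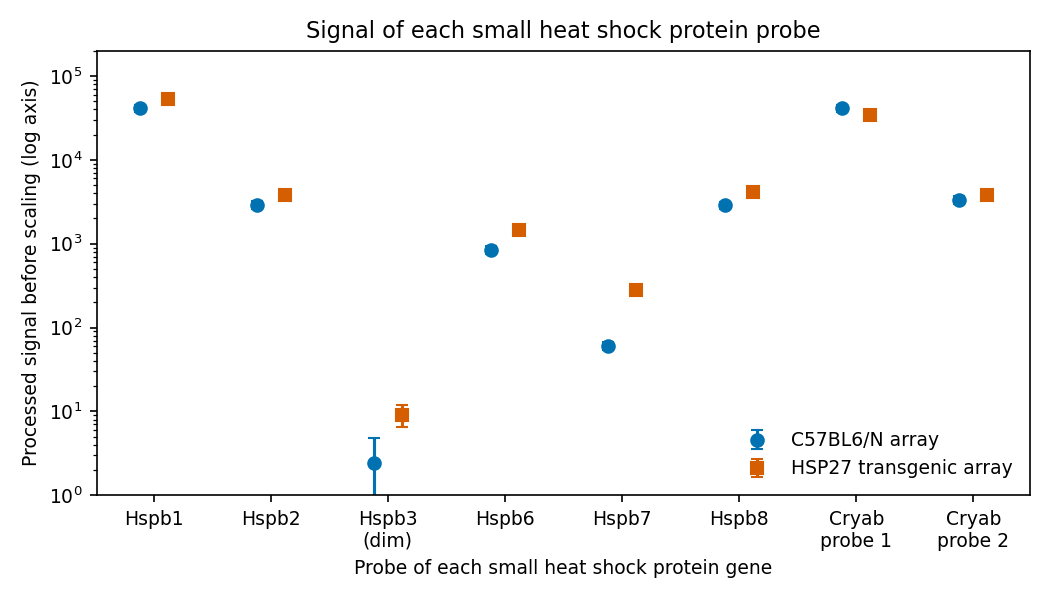
Processed signal before scaling (y axis, log scale) of each of the 8 probes (x axis) on the C57BL6/N array (circles) and the HSP27 transgenic array (squares). Bars are the error estimates of the scanner software, mostly hidden by the symbols, the lower bar of Hspb3 runs off the axis on the C57BL6/N array, and heights of different probes are not comparable. The symbols of Hspb7 stand farthest apart among the probes above background, and Cryab probe 1 is the only pair with the C57BL6/N symbol on top.

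As a family, 5 of the 6 measured members read higher in the transgenic lung and 1 lower. The median of all measured genes has as many genes above as below it, and 5 members lay above it and 1 below. The split was the same under each alternative scaling and background correction, and without a filter on dim probes Hspb3 entered and it was 6 to 1. Past the 1.5-fold line there were 2 of the 6 measured members on the higher side and 0 on the lower. Over all 15495 measured genes, 10.2% lay past that line on the higher side and 8.31% on the lower. The median difference of the members was 0.32, and that of all measured genes was -0.04. A list of 6 genes, chosen with such results known, is too short to set either count apart from that of all measured genes. The central 95% of all differences ran from -0.92 to 1.24, and Hspb7 was the only member outside it.

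**Figure D3:**
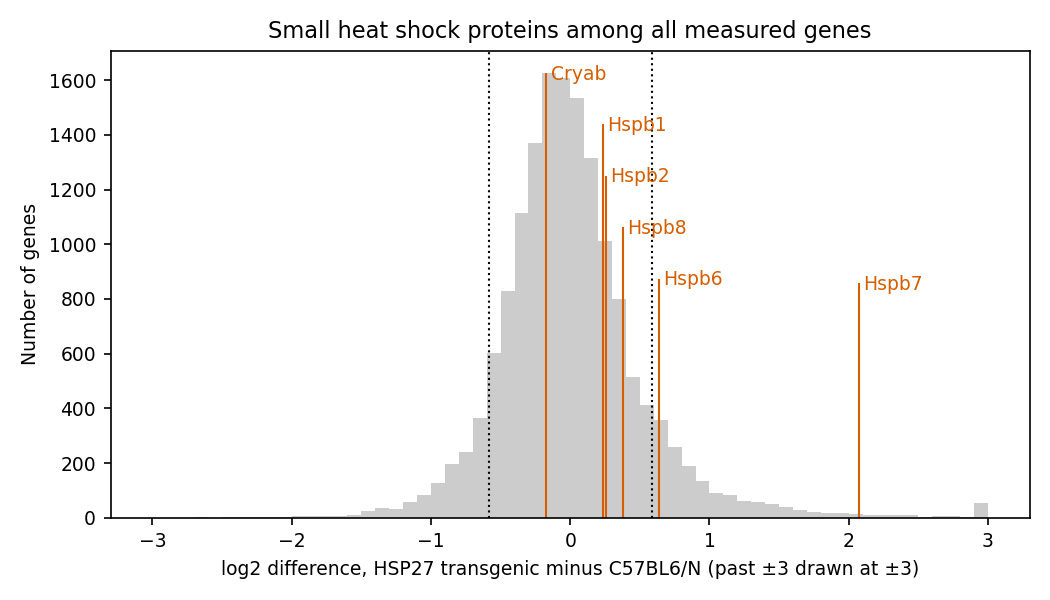
Number of genes (y axis) by scaled log2 difference, transgenic minus C57BL6/N (x axis), for the 15495 measured genes, with the 6 measured members as vertical lines of arbitrary height and the 1.5-fold lines dotted. Hspb7 at 2.07 stands in the sparse right tail, Hspb6 at 0.63 just past the dotted line, and the other 4 between the dotted lines.

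Further genes carry the family name or fold, and their readings were taken the same way. Cryaa, the alphaA-crystallin of the lens, read 210 in C57BL6/N and 393 in transgenic lung at one probe, a difference of 0.75, and was not well above background at its other probe. Hspb9, known from testis, read 58.4 and 57.3, a difference of -0.17. Hspb11, a component of the transport machinery of cilia, read 2496 and 2975, a difference of 0.11. Odf1, of the sperm tail, was not well above background on either array.

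Heat-induced chaperones of other families read lower or about level in the transgenic lung. Of 20 measured heat-induced chaperones and cofactors, 0 lay past 1.5-fold upward and 1 downward, beside 10.2% and 8.31% of all measured genes. Their median was -0.21. All 20 were below 0 in the scaling used, while between 0 and 3 of them were above 0 in the 11 alternatives, and against the median of all genes 17 of 20 were lower. The one past 1.5-fold was Hsph1, a nucleotide exchange factor of HSP70, at -0.89, while Hspa1a, the inducible HSP70, was at -0.12. Hsf1, the transcription factor that drives heat shock genes including Hspb1, read 1784 and 1748, a difference of -0.18. Of the other heat shock factors, Hsf2 was at -0.46 and Hsf4 at 0.15, and Hsbp1, a protein that binds Hsf1, was at 0.36, so 0 of these 4 genes lay past 1.5-fold and they were split in direction. On the route that phosphorylates HSP27, 0 of 16 genes lay past 1.5-fold upward and 1 downward, and the median was -0.15. Mapk14 (p38 alpha) was at -0.23, with probes at -0.47 and 0.02. Mapkapk2 (MK2) was at 0.00, and Dusp1, a phosphatase that switches p38 off, at -0.66. These are RNA levels and say nothing of phosphorylation.

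Some genes listed here as partners of small heat shock proteins read higher, among them 3 of muscle filaments. Binding was not measured for any gene of this list. Of 16 measured partners, 5 lay past 1.5-fold upward and 1 downward, beside 10.2% and 8.31% of all measured genes, and the median was 0.08. The remaining partner, Actn2, was well above background in transgenic lung only. Ttn and Actn2 also stand in the cardiac list below, and Des and Synpo2 in the smooth muscle list. Flnc, the filamin C bound by Hspb7, read 575 in C57BL6/N and 1639 in transgenic lung, a difference of 1.36. Des, the desmin protected by Cryab, read 479 and 1205, a difference of 1.18. Ttn, the giant sarcomere protein, was dim in C57BL6/N, read 24.3 and 377, and was at 3.80. The other 2 past the line were Sqstm1, an autophagy receptor, at 0.77 and Lmna, a nuclear lamin, at 0.69, and the lower one was Tsc22d3, a glucocorticoid-induced gene, at -0.70. Bag3, the partner of Hspb8, was at -0.13 and read 7267 and 7346.

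Markers of muscle differed between the same arrays as Hspb7 and Hspb6. Past 1.5-fold lay 10.2% of all measured genes upward and 8.31% downward. Of 12 cardiac markers with a difference, 11 lay past 1.5-fold upward in transgenic lung and 0 downward, their median was 3.37, and the other 6 of the 18 were above background in transgenic lung only. The summed signal of these 12, in units of the 75th percentile, was 5.09 in C57BL6/N and 7.38 times as high in transgenic lung. Myh6, the atrial and adult ventricular myosin chain, was at 7.09, Nppa at 5.55 and Myl3 at 5.38, while Myl2, the ventricular light chain, read 20.7 and 18.0 and was at -0.35. Of 8 smooth muscle markers, 6 were higher and 0 lower, with a median of 1.04 and a summed signal of 34.0 against 78.6, led by Cnn1 at 1.91. Of 6 measured skeletal muscle markers, 3 were higher, with a median of 0.40 and a summed signal of 1.41 against 1.89. That median was 0.06 with normexp and -0.03 without the filter on dim probes, where 5 were higher and 1 lower. The fast myosin genes Myh1, Myh2 and Myh4 and the light chain Mylpf were not well above background on either array. Of the adipose markers 5 of 5 measured and of the basal airway markers 5 of 5 were higher as well, with medians of 2.32 and 3.57. Another 3 adipose markers were well above background in transgenic lung only, and Lep on neither array. The adipose median was 4.86 without the dim filter and the basal airway median 2.16 with normexp. Either count was 4 with the brightest probe of each gene, and the adipose count was 4 with normexp. The probes of Trp63, a basal cell transcription factor, were at -0.23 and 2.22. The part of these tissues in the readings of Hspb7 and Hspb6 was not tested. In whole lung, more cells of a kind, more RNA per cell and a different share of other tissue in the sample cannot be told apart.

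Among 26 measured genes of the muscle lists, those with the log2 difference closest to that of Hspb7 were Acta1 (2.03), Cnn1 (1.91) and Actg2 (1.64), at distances of 0.04, 0.16 and 0.43. Those closest to Hspb6 were Actn3 (0.78), Synpo2 (0.43) and Tagln (0.87), at distances of 0.15, 0.21 and 0.24. Actn3 read 12.6 in C57BL6/N, close to the lowest signal well above background there, and the probes of Synpo2 were at 0.04 and 0.81. With normexp the genes closest to Hspb7 were Actc1, Acta2 and Acta1, and those closest to Hspb6 were Ryr2, Synpo2 and Myh11. This likeness rests on 2 arrays and is a description of single differences. Only genes of the muscle lists were searched, so genes of other kinds with differences as close were not counted. The listing therefore does not show that either gene is more like muscle genes than like others.

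**Figure D4:**
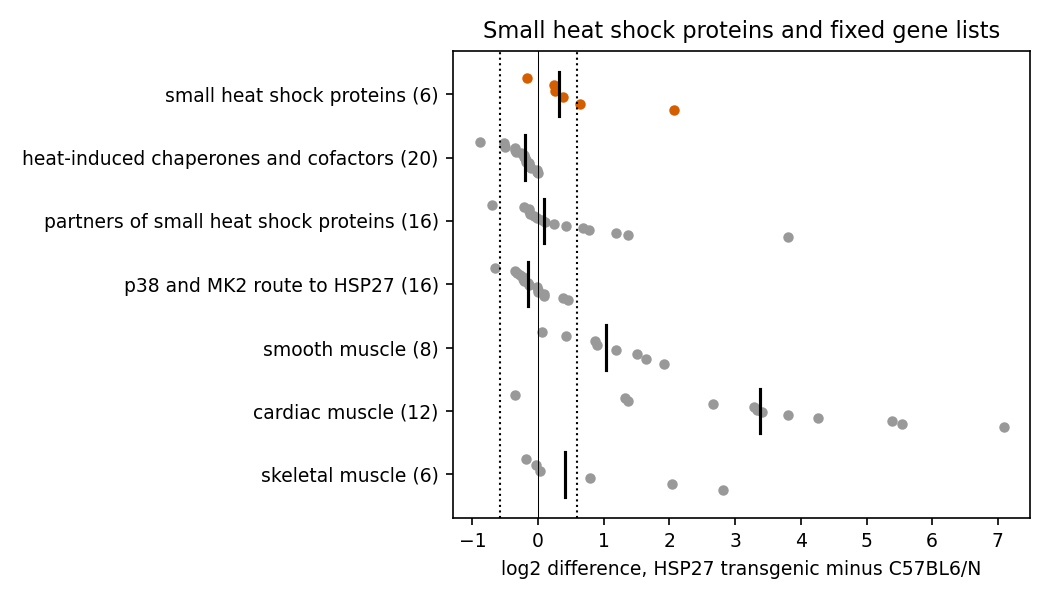
Scaled log2 difference, transgenic minus C57BL6/N (x axis), of each measured gene among the small heat shock proteins and in 6 gene lists (rows, with the number of genes measured), with the median as a black bar and the 1.5-fold lines dotted. The 20 heat-induced chaperones lie at or below 0 and 11 of the 12 cardiac markers lie past the right dotted line.

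Across the 11 alternatives, Hspb1 ranged from 0.23 to 0.30, Hspb2 from 0.26 to 0.31, Hspb8 from 0.37 to 0.45 and Hspb7 from 1.36 to 2.18. Hspb6 ranged from 0.51 to 0.69. Of the 11 alternatives, 6 changed its value by more than 0.005, and it was past 1.5-fold in 4 of these. The mean of Cryab ranged from -0.40, where its brighter probe alone was used, to -0.12.

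**Figure D5:**
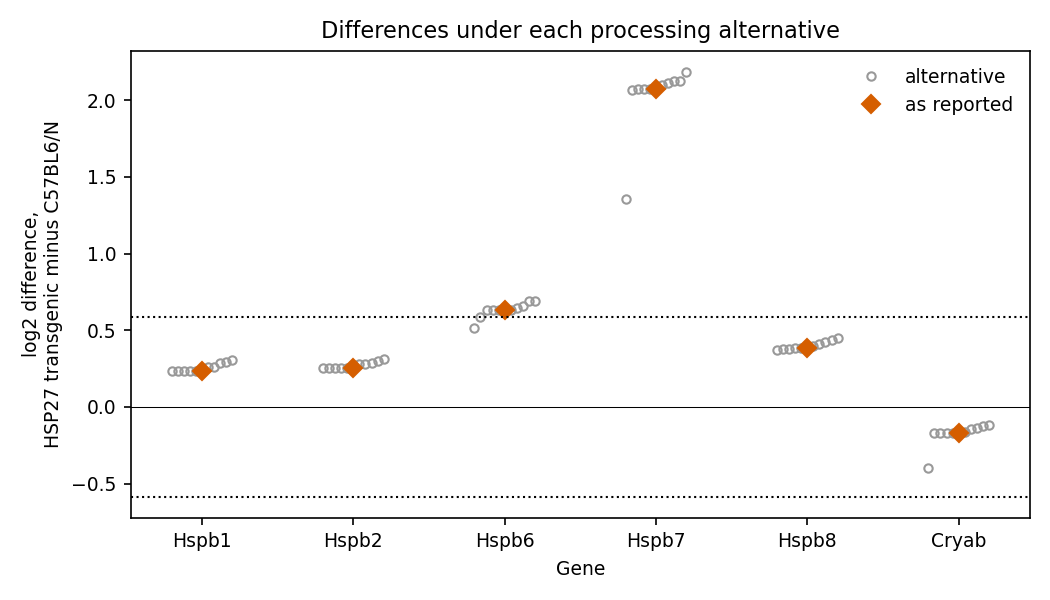
Scaled log2 difference, transgenic minus C57BL6/N (y axis), of the 6 measured members (x axis) as reported (diamonds) and under each of the 11 alternatives (open circles), with the 1.5-fold lines dotted. The order of Hspb7 above Hspb6 above Hspb8 holds throughout, and the lowest circle of Hspb7, at 1.36, is the normexp correction.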

How the data were processed

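The deposited array files give each spot an intensity and quality flags, made with Agilent Feature Extraction 11.5.1.1 per the file headers. The processed signal had background subtracted and trends across the array removed. The deposited table of the series is an intensity on a linear scale too. For 39030 of 39030 probes with 1 spot, it equalled the processed signal within 0.1% on each array. Control and outlier spots were left out, spots of a probe were averaged as log2 values, and the 75th percentile over non-control probes was subtracted from each array. A probe was usable if at least 50% of its spots were well above background and none was saturated, on both arrays, and usable probes of a gene were averaged. Of 39429 probes, 27508 (69.8%) took a symbol through a RefSeq table of GRCm38.p6. The array header names mm9, so the table gave no array positions. Technical SDs came from 310 probes with at least 8 usable spots, in 3 groups by signal (0.15, 0.06 and 0.05). Members and lists were chosen with earlier results of these data known. The rule named all members, up to 3 genes past 1.5-fold in each direction from a list (not all are printed), Hsf1, Bag3, Hspa1a, Mapk14, Mapkapk2, Des, Flnc, Actb, Xist and Ddx3y, and 3 muscle genes nearest to each member past 1.5-fold. Other list genes were named after their values were seen. Alternatives were normexp, median scaling, quantile normalization, cyclic loess, a percentile over bright probes, no or a stricter filter, outlier spots kept, the brightest probe, the deposited table and the signal before trend removal. Steps were tested on simulated data, where 100 genes set 2-fold higher had a median of 1.01 among 15831 genes. Tools were Python 3.11.15, numpy 2.4.6, pandas 2.3.3, matplotlib 3.10.9, R 4.3.3 and limma 3.58.1.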

Additional observations from a re-analysis of the deposited data

How the results depend on the processing

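Among the 11 alternatives, 10 were planned and 1, the signal before the removal of array-wide trends, was chosen after seeing the data. The difference of Hspb1 stayed above 0 in all of them, and 6 of them changed it by more than 0.005. It was 0.29 with median scaling and 0.30 with the signal before trend removal. The number of members at least 1.5-fold higher was 1 with normexp and 1 with the signal before trend removal, since Hspb6 fell short of the line in each, and 3 without the filter on dim probes, where Hspb3 entered. With normexp, the share of all measured genes at least 1.5-fold higher was 6.33% and that of lower genes 4.40%. That correction used median spot and background signals with an offset of 50 and left out 7 of 44397 spots whose local background reached their signal on either array. The stricter filter, above the 25th percentile of each array, left the same number of genes as the filter used. Of other values under these settings, 8 of 55 for members and 24 of 528 for lists and counts moved. Moved means a change of at least the repeated-spot SD for a member, and past a set limit for a list or count. For each measured member, 6 of the 11 alternatives changed its value by more than 0.005, and the others could hardly move it. No difference or median past 1.5-fold changed sign. Smaller list medians changed sign in 8 of 176 comparisons. The median of the heat shock factors, -0.01 as reported, was between 0.01 and 0.07 in 6 of them, that of the actin-binding proteins was -0.0007 with normexp, and that of skeletal muscle was -0.03 without the dim filter. No paired analysis was possible because each group holds 1 array. Signal over background limits Hspb3, which had no fold, and Hspb7, whose signal on the C57BL6/N array was nearest to background among the measured members.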

Other observations

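Actin-binding and capping proteins, the filament system to which HSP27 binds, had a median difference of 0.04 over 24 measured genes, with 2 at least 1.5-fold higher and 1 lower. Over all measured genes, 10.2% were past that line upward and 8.31% downward. Tpm2 and Tpm1, tropomyosins abundant in muscle, were at 1.37 and 0.87, and the 5 probes of Tpm1 ran from 0.17 to 1.52. The lower gene was Ssh1, a phosphatase that activates cofilin, at -0.67. The number lower was 0 with normexp and with cyclic loess. Actb, the beta-actin of most cells, read 306867 in C57BL6/N and 311821 in transgenic lung, a scaled difference of -0.13.

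Of 8 lens genes, 4 were measured with a median of -0.44 and 0 past 1.5-fold in either direction. Bfsp1 was at 0.06 and the other 3 were below 0, and Cryba1, Crybb2, Lgsn and Mip were not well above background on either array. Markers of the labelled tissue were bright on both arrays. Sftpc, the surfactant protein C of alveolar type 2 cells, read 448223 and 376982, and Ager, of alveolar type 1 cells, 20211 and 15945. Past 1.5-fold lay 4 of 5 endothelial markers downward (median -0.75) and 4 of 5 fibroblast markers upward (median 0.88). Over all measured genes these shares were 8.31% and 10.2%.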
